A study of Homo sapiens with 9 samples.

Results

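The 10 genes described here are established target genes of the transcriptional coactivator YAP and its DNA-binding partners, the TEAD proteins: CCN1, CCN2, F3, AXL, CRIM1, AMOTL2, AJUBA, LATS2, ANKRD1 and FHL2. They are 10 of the 56823 genes summed from the transcript tables, and all 10 had enough reads to enter the fit of 19658 genes. They were named with results of these libraries already known, because several lay on opposite sides of the control with the 2 guides. Their differences between the 3 groups are therefore given as a description, with no test. YAP and its relative TAZ (gene WWTR1) carry the output of the Hippo pathway: when the kinases LATS1 and LATS2 phosphorylate them they are held in the cytoplasm, and when they are not phosphorylated they enter the nucleus and bind TEAD proteins at promoters and enhancers. Targets include secreted and surface proteins that act on neighbouring cells and matrix, and also inhibitors such as LATS2 and AMOTL2 that feed back on YAP itself. In lung adenocarcinoma the pathway is known for responding to cell density and stiffness and for its link to survival under EGFR inhibitors.

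Total RNA of H1975 cells was sequenced. This line, from a human lung adenocarcinoma with mutant EGFR, was engineered with a doxycycline-inducible dCas9-KRAB repressor (a Cas9 that binds DNA without cutting it, fused to a silencing domain). Cells of all 3 groups were grown under G418 and puromycin and received doxycycline at 4 ug/ml for 72 h, the controls included, so no group lacks doxycycline or the repressor. The groups differ in the guide RNA: a non-targeting guide (control), gRNA1 or gRNA2, both directed at the long noncoding RNA TRIDENT, with 3 libraries each. The labels do not say whether the engineered line was a single clone or whether the libraries of a group came from separate cultures, so p-values measure only the spread between these libraries, which may be technical.

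Estimated reads per library ran from 16918432 to 26466536, with gRNA2 replicate 3 the shallowest. TRIDENT (RefSeq symbol TRIDDENT, chr16:3931217-3950586 in hg38) had between 36 and 62 reads in each of the 9 libraries, with a mean of 2.58 ± 0.287 CPM for the control label, 1.91 ± 0.163 CPM for the gRNA1 label and 2.44 ± 0.132 CPM for the gRNA2 label (SD, n = 3; CPM are reads scaled to a common library size). Against the control that is 0.745-fold (edgeR adjusted p = 0.128) and 0.945-fold (edgeR adjusted p = 0.81). Neither passed an adjusted p of 0.05, so lower TRIDENT was not called for either guide. The reads do not separate the gRNA2 label from the control label, and directions below belong to libraries as labelled. All 8 lung epithelial markers were detected, the lowest being NKX2-1 at 39.1 TPM (a scale that divides reads by transcript length), and their sum was 2115 to 2231 TPM in the controls, 2067 to 2178 with gRNA1 and 2181 to 2192 with gRNA2. Of 11 markers of blood, endothelial and stromal cells, 7 were below 1 TPM, COL3A1 was at 0 reads, COL1A1 was the highest at 8.87 TPM, and the sum was 15.8 to 17.6, 17.0 to 18.4 and 15.6 to 18.8 TPM in the 3 groups. Some markers moved with the guides by edgeR. CDH5, an endothelial cadherin, stayed under 1 TPM but rose 3.19-fold with gRNA1 (adjusted p = 0.00094) and 2.39-fold with gRNA2 (0.0069), and KRT19 fell to 0.817-fold with gRNA2 (0.0019). EGFR (0.920-fold, 0.025) and CDH1 (0.927-fold, 0.041) also fell with gRNA1, and KRT8 (0.875-fold, 0.022) with gRNA2. None of these 3 calls held without control replicate 1, control replicate 2 or gRNA2 replicate 2, nor those of EGFR and CDH1 without control replicate 3 or gRNA1 replicates 1 or 2, that of CDH1 without gRNA1 replicate 3, or those of CDH1 and KRT8 without gRNA2 replicate 3. The part of these markers in the differences below was not tested.

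TEAD proteins bind a short core, GGAATG, and YAP targets often carry sites for AP-1 (TGANTCA, where N is any base) or, for serum response factor, a CArG box. RefSeq promoters of GRCh38.p14 were matched for 8 of the 10 genes, and both strands of the 250 bases before each start were searched, without overlap between the 3 motifs; those of CCN1 and CRIM1 were not analysed here. The TEAD core was present before at least 1 start of 6 of the 8 genes (CCN2, ANKRD1, AXL, AMOTL2, AJUBA and FHL2), against 11.89% of 35116 promoters and 14.3% of 27297 other genes with any promoter matched. For AXL, AMOTL2, AJUBA and FHL2 that start lay inside the annotated gene, and the outermost start of each had 0 cores. The matched start of ANKRD1 also lay inside its annotated gene, so its core 128 bases before that start fell in an annotated exon. CCN2 held 3 cores, 169, 104 and 95 bases before its start, a number reached by 0.083% of promoters, and ANKRD1 held 2, at 220 and 128 bases, as 0.94% of promoters did. An AP-1 match was found for ANKRD1 (195 bases before the start) and 2 matches for F3 (223 and 210 bases), against 6.57% of promoters, and a CArG box for FHL2, against 1.16%. LATS2 had no match to any of the 3 motifs in its window. These are letter matches and not measurements of binding. The 4 stretches below are shown because they hold the repeated cores of CCN2, the paired TEAD and AP-1 letters of ANKRD1, the AP-1 pair of F3 and the CArG box of FHL2. Capitals mark the motif letters, each line reads 5′ to 3′ along the gene (minus strand for all 4), and bases that GENCODE 29 assigns to an exon were left off. In ANKRD1 this leaves off the last base of the AP-1 match and the second TEAD core.
CCN2 (chr6:131951374-131951622): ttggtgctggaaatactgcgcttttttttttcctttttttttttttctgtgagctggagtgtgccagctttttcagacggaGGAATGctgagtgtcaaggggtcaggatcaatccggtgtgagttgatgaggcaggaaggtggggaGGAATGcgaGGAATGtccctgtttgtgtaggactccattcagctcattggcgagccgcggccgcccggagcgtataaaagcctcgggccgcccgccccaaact
ANKRD1 (chr10:90921277-90921337): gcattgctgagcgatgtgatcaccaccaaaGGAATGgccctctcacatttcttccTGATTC
F3 (chr1:94541801-94542009): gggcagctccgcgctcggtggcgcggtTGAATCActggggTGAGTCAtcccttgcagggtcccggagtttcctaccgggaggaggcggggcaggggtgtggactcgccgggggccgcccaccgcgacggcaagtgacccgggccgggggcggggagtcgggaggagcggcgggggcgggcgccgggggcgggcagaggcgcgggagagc
FHL2 (chr2:105438514-105438763): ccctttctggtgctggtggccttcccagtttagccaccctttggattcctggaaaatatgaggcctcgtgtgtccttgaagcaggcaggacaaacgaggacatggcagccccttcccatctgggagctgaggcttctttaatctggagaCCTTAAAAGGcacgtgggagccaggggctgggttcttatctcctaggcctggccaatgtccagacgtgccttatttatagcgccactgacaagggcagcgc

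Across the 10 genes, most were lower than the control with gRNA1 and higher with gRNA2. CCN1, AMOTL2, AJUBA, LATS2, F3 and FHL2 lay below the control with gRNA1 and above it with gRNA2 in their group means. ANKRD1 and CRIM1 were below the control with both guides in CPM, and CCN2 and AXL were above it with both. With gRNA1 the 3 libraries did not overlap the 3 controls for any of the 10 genes (8 below, 2 above), and 28.1% of all genes tested were separated in this way (14.6% below, 13.5% above). With gRNA2, 8 of 10 were separated (7 above, CRIM1 below, with ANKRD1 and AXL overlapping), where 27.4% of all genes were (13.6% above, 13.7% below). The genes were chosen on these contrasts, so nothing is read from either count. Both comparisons use the same 3 control libraries. The median log2 difference of the 10 genes was -0.21 with gRNA1 and 0.16 with gRNA2, beside medians of -0.00034 and 0.01 over all genes tested. In these bulk libraries, fewer cells expressing a gene and less RNA per cell cannot be told apart.

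**Figure D1:**
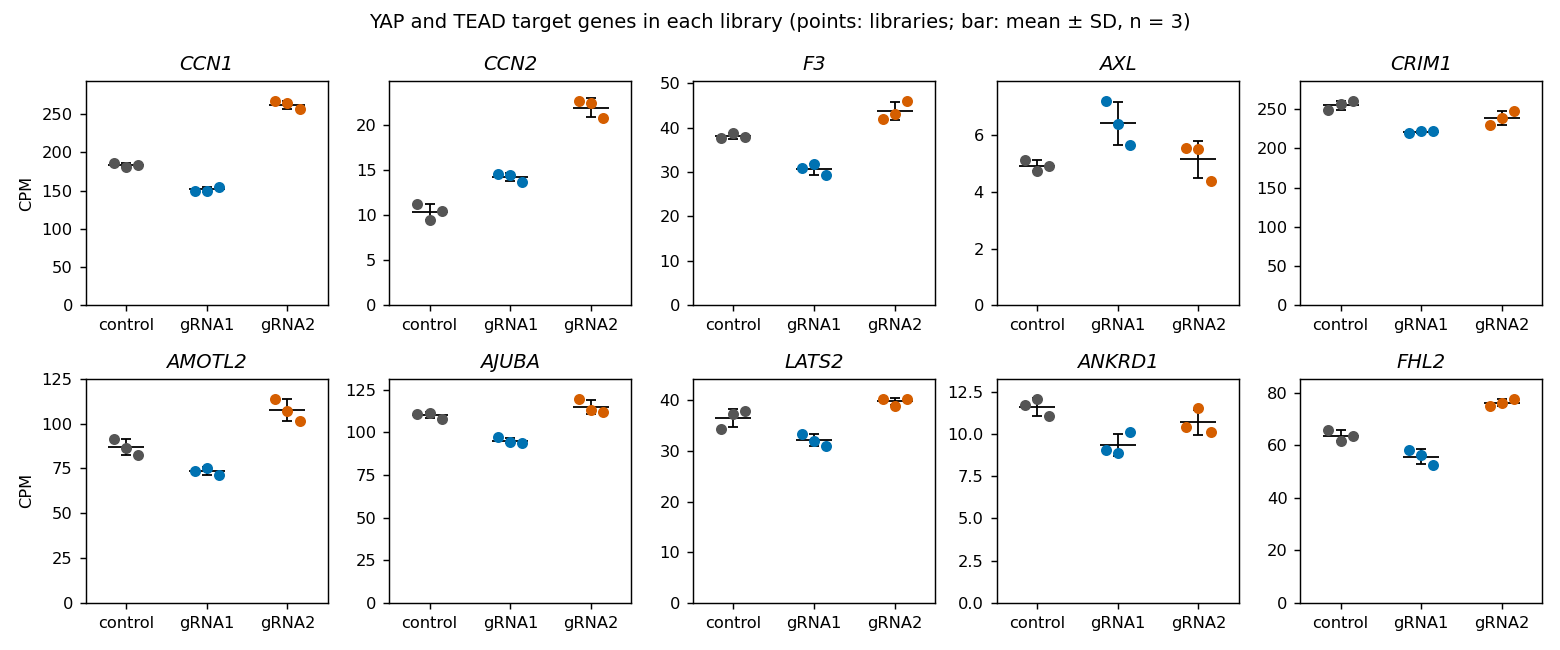
Each panel plots 1 gene, with TMM-scaled CPM on the vertical axis from 0, the 3 groups on the horizontal axis, 1 point per library and a bar for the mean ± SD (n = 3). CCN1 sits between 149 and 155 CPM with gRNA1, below its controls, and between 256 and 266 with gRNA2, above them.

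The secreted matrix-associated proteins CCN1 and CCN2, which bind integrins and are the most used reporters of YAP activity, had the widest differences with gRNA2 and between the guides, and lay on opposite sides of the control with gRNA1. CCN1 (named CYR61 in the annotation, chr1:85580761-85583962, plus strand) was at 186, 180 and 183 CPM in the controls, 150, 149 and 155 CPM with gRNA1 and 266, 264 and 256 CPM with gRNA2. All gRNA1 libraries were lower than every control and all gRNA2 libraries higher, with no overlap among the 3 groups. The group means were 183 ± 2.78, 151 ± 3.11 and 262 ± 5.35 CPM (SD, n = 3). That is 0.827-fold with gRNA1 (log2 difference -0.27 ± 0.035, edgeR estimate and SE) and 1.43-fold with gRNA2 (0.52 ± 0.034). Between 3037 and 6911 reads stood behind each value, so counting error is small beside these differences.

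CCN2 (CTGF, chr6:131948176-131951373, minus strand), whose promoter stretch with 3 TEAD cores is shown above, was at 11.2, 9.45 and 10.4 CPM in the controls, 14.5, 14.5 and 13.7 CPM with gRNA1 and 22.6, 22.4 and 20.8 CPM with gRNA2. The 3 groups formed 3 separate ranges, with the controls lowest and gRNA2 highest. Means were 10.4 ± 0.894, 14.2 ± 0.484 and 22.0 ± 1.02 CPM, or 1.38-fold with gRNA1 (log2 0.46 ± 0.079) and 2.13-fold with gRNA2 (1.09 ± 0.075). With gRNA2 both CCN genes were above the control, whereas with gRNA1 CCN1 was below it and CCN2 above it.

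Among the surface proteins, F3, which encodes tissue factor, the initiator of the extrinsic clotting cascade, was at 37.7, 38.8 and 37.8 CPM in the controls, 31, 31.7 and 29.3 CPM with gRNA1 and 42.1, 43.2 and 45.9 CPM with gRNA2 (chr1:94529225-94541800, minus strand). The groups again did not overlap, with gRNA1 lowest and gRNA2 highest. The folds were 0.805 with gRNA1 (log2 -0.31 ± 0.052) and 1.14 with gRNA2 (0.19 ± 0.050).

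AXL, a receptor tyrosine kinase that binds GAS6 and is known for a role in escape from EGFR inhibitors, was the gene with the fewest reads, 73 to 150 per library (chr19:41219203-41261766, plus strand). It was at 5.14, 4.72 and 4.92 CPM in the controls, 7.19, 6.40 and 5.66 CPM with gRNA1 and 5.57, 5.50 and 4.38 CPM with gRNA2. The gRNA1 libraries were all above the controls, while those of gRNA2 lay on both sides of them. Its folds were 1.31 with gRNA1 (log2 0.38 ± 0.12) and 1.06 with gRNA2 (0.08 ± 0.13), and its SE was the largest of the 10 genes.

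CRIM1, a transmembrane protein with cysteine-rich repeats that binds bone morphogenetic proteins, was at 249, 256 and 260 CPM in the controls, 220, 222 and 222 CPM with gRNA1 and 230, 239 and 247 CPM with gRNA2 (chr2:36355926-36551135, plus strand). Both guides lay below the controls, gRNA1 the lower, without overlap among groups. The folds were 0.867 (log2 -0.21 ± 0.036) and 0.935 (-0.10 ± 0.036). The gRNA2 direction differed between CPM and TPM summed over transcripts. In summed TPM, CRIM1 was at 69.5 ± 2.03 in the controls and 74.3 ± 1.58 with gRNA2, with every gRNA2 library above every control. With an offset for transcript length the log2 difference was 0.03. In TPM the main transcript, with 95.9% of the reads, was at 44.6 ± 1.74 in the controls and 42.6 ± 2.98 with gRNA2. Its mean was thus lower with gRNA2, as in CPM, and the other transcripts carried the rise of the sum. With gRNA1, CRIM1 was lower in CPM and in summed TPM. In summed TPM the gRNA1 libraries overlapped the controls, at 59.5 to 71.3 against 67.9 to 71.8, and with the offset the log2 difference was -0.11.

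**Figure D2:**
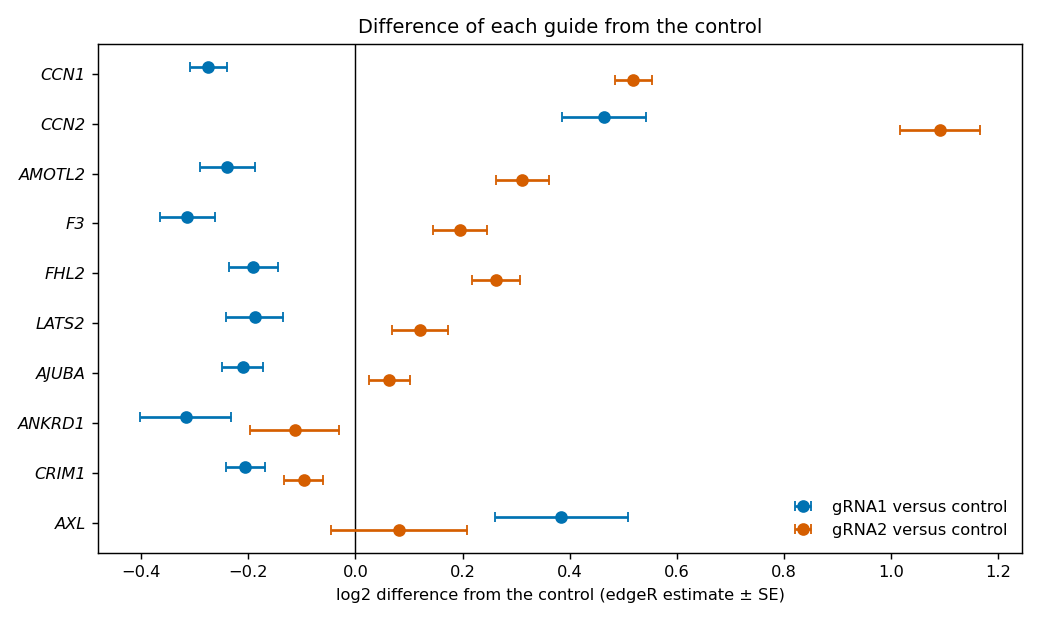
Points give the log2 difference of each guide from the control for each gene, with bars of 1 SE from the edgeR fit of all 9 libraries; the vertical line marks no difference. Filled blue points for gRNA1 lie left of the line for 8 genes and right of it for CCN2 and AXL, and orange points for gRNA2 lie right of it for 8 genes, up to 1.09 for CCN2.

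Products of 3 of the genes act back on the pathway. AMOTL2, an angiomotin-family protein that holds YAP in the cytoplasm and at junctions, was at 91.4, 86.2 and 82.6 CPM in the controls, 73.5, 75.5 and 71.3 CPM with gRNA1 and 114, 107 and 101 CPM with gRNA2 (chr3:134355874-134375479, minus strand). The groups did not overlap, gRNA1 being lowest and gRNA2 highest. The folds were 0.847 (log2 -0.24 ± 0.051) and 1.24 (0.31 ± 0.050). Both differences were smaller than those of CCN1.

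AJUBA, a LIM-domain protein that binds LATS kinases and limits their action on YAP, was at 111, 112 and 108 CPM in the controls, 97.0, 94.6 and 93.8 CPM with gRNA1 and 119, 113 and 112 CPM with gRNA2 (chr14:22971174-22982642, minus strand). The gRNA1 libraries were clearly below the controls, whereas the lowest gRNA2 library lay just above the highest control. The folds were 0.864 (log2 -0.21 ± 0.039) and 1.04 (0.06 ± 0.038). In TPM summed over transcripts the gRNA2 separation was wider, with 56.2 to 61.2 in the controls and 63.6 to 66.7 with gRNA2. The main transcript alone did not show this, at 23.3 ± 1.15 TPM in the controls and 24.2 ± 0.555 with gRNA2.

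LATS2, the kinase that phosphorylates YAP and TAZ, was at 34.4, 37.2 and 37.9 CPM in the controls, 33.3, 31.9 and 31 CPM with gRNA1 and 40.2, 38.9 and 40.2 CPM with gRNA2 (chr13:20973032-21061547, minus strand). The ranges came close to one another without overlapping. The folds were 0.878 (log2 -0.19 ± 0.053) and 1.09 (0.12 ± 0.052). In TPM the gRNA1 and control libraries of LATS2 overlapped, at 5.64 to 6.92 against 6.30 to 7.27.

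The remaining genes encode nuclear or cytoskeletal cofactors. ANKRD1, an ankyrin-repeat protein of nucleus and sarcomere that is induced by YAP in many epithelial cells, was at 11.7, 12.1 and 11.0 CPM in the controls, 9.02, 8.88 and 10.1 CPM with gRNA1 and 10.4, 11.5 and 10.1 CPM with gRNA2 (chr10:90912096-90921276, minus strand). The gRNA1 libraries were below the controls, and the gRNA2 libraries overlapped both other groups. The folds were 0.803 (log2 -0.32 ± 0.085) and 0.924 (-0.11 ± 0.083). With gRNA2 its mean was thus on the other side of the control from those of CCN1 and CCN2.

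FHL2, a LIM-only scaffold protein that acts as a transcriptional co-regulator, was at 65.8, 61.8 and 63.4 CPM in the controls, 58.2, 56.4 and 52.7 CPM with gRNA1 and 75.1, 76.3 and 77.6 CPM with gRNA2 (chr2:105357712-105438513, minus strand). The gRNA2 libraries stood well above the rest, and the gRNA1 libraries lay below every control. The folds were 0.876 (log2 -0.19 ± 0.046) and 1.20 (0.26 ± 0.045). In TPM the gRNA1 libraries of FHL2 overlapped the controls, at 31.6 to 37.9 against 37.8 to 40.5, and the gRNA2 libraries did not, at 47.3 to 51.7.

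Set directly against each other, gRNA2 was above gRNA1 for 9 of the 10 genes, with AXL the exception. The libraries of the 2 guides were separated for 9 genes in CPM (8 above and AXL below, with ANKRD1 overlapping), where 23.8% of all genes tested were separated (11.9% above, 12% below). CCN1 was 1.73-fold higher with gRNA2 than with gRNA1 (log2 0.79 ± 0.034), CCN2 1.54-fold (0.63 ± 0.072), AMOTL2 1.46-fold (0.55 ± 0.050), F3 1.42-fold (0.51 ± 0.051) and FHL2 1.37-fold (0.45 ± 0.045). LATS2 at 1.24-fold, AJUBA at 1.21-fold, ANKRD1 at 1.15-fold and CRIM1 at 1.08-fold were nearer to 1, and AXL was at 0.811-fold. The median over the 10 genes was 0.38 on the log2 scale, against 0.00 over all genes tested. Because the genes were chosen with this contrast in view, these values describe them and test nothing.

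Length-adjusted TPM, summed over transcripts, allows the genes to be ranked against one another. The sums include transcripts with few reads. In the controls the main transcript of AJUBA was at 23.3 ± 1.15 TPM and that of FHL2 at 23.6 ± 1.74. The order of these 2 genes thus rests on their other transcripts. In the controls the order was CCN1 (106 ± 4.91 TPM), CRIM1 (69.5 ± 2.03), AJUBA (58.2 ± 2.66), FHL2 (39.3 ± 1.41), AMOTL2 (23.5 ± 0.915), F3 (18.4 ± 0.879), LATS2 (6.88 ± 0.508), CCN2 (4.99 ± 0.306), ANKRD1 (4.60 ± 0.317) and AXL (1.01 ± 0.052; mean ± SD, n = 3). Neighbours in this order did not overlap between control libraries except CCN2 and ANKRD1, which are not separated from each other. CCN1 was thus expressed above 96.3% of the tested genes and AXL above 19.9%. With gRNA2, CCN1 reached 159 ± 5.21 TPM, and CCN2 at 10.9 ± 0.303 TPM passed LATS2 at 7.84 ± 0.240 TPM. With gRNA1 the mean of CCN2 was also above that of LATS2, at 6.95 ± 0.543 against 6.29 ± 0.641 TPM, with overlapping libraries. In TPM, gRNA1 libraries were separated from controls for 7 genes (2 above, 5 below). Those of gRNA2 were separated from controls for 8 genes, all above, and from gRNA1 for 9 genes, all above. Of all genes tested, 19.8%, 23% and 19.5% were separated in these 3 comparisons, counting either direction. TPM carried no TMM scaling. With gRNA2, CRIM1 was above the control in summed TPM and below it in CPM. Its main transcript alone, also without TMM scaling, had a lower mean with gRNA2, at 42.6 ± 2.98 against 44.6 ± 1.74 TPM. The part of the scale in these directions was not tested.

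**Figure D3:**
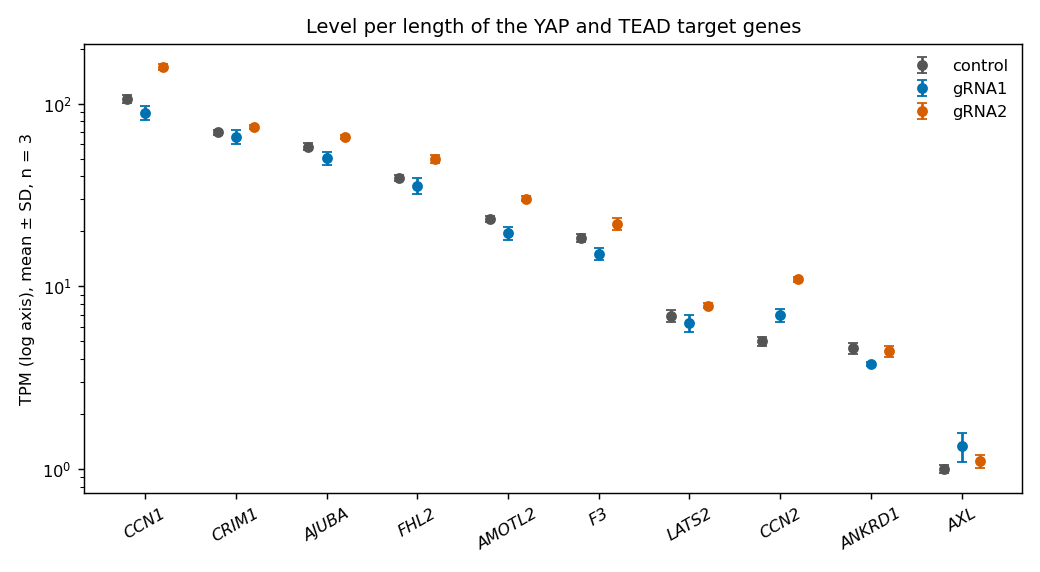
Mean TPM ± SD (n = 3) is plotted on a log axis for the 10 genes in control order, with 1 point per group. The levels span from 106 TPM for CCN1 to 1.01 TPM for AXL in the controls. The gRNA1 and gRNA2 points of CCN2 stand above those of its neighbour LATS2.

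Reads were shared unequally among the transcripts of these genes. CCN2 and ANKRD1 have 1 annotated transcript each, and the main transcript held 97.4% of the reads of CCN1, 99.9% of those of LATS2 and 95.9% of those of CRIM1. Across libraries the main transcript held 84.7% to 100% of the reads of AXL, 83.1% to 88.6% of those of F3 and 71.6% to 76.0% of those of AJUBA. Shares of the length-adjusted level were lower. In the controls the main CCN1 transcript was at 82.0 of 106 TPM, the main CRIM1 transcript at 44.6 of 69.5 TPM and the main AJUBA transcript at 23.3 of 58.2 TPM. For AMOTL2 the split of reads varied most: AMOTL2-201 held 37.5% to 79.4% of the reads and a second transcript 9.01% to 53.3%, in ranges that overlapped between groups, while both together held 84.3% to 92.6%. The split therefore varied between libraries of 1 group, and only the sum over AMOTL2 is described. Reads of FHL2 were spread over 3 transcripts, of which FHL2-208 held 57.2% to 64.6%. Sequence shared with other genes was small, from 0% of 31-base words (CCN1 and LATS2) to 7.85% (FHL2). The largest exon overlap was 8.3% of CCN2 with an antisense gene that had 0 mean reads. On the same strand, AMOTL2 shared 3.1% of its exon bases with RPL39P5, at 9.1 mean reads against 1954 for AMOTL2. AJUBA shared 0.8% with another gene on its strand, at 201 mean reads against 2330 for AJUBA. The strand setting is not given in the sources used here.

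The genes nearest to CCN1, CCN2 and ANKRD1 over the 9 libraries were found among 13235 expressed genes, by the root mean square difference of log2 CPM after each gene's own mean was subtracted. For CCN1, whose own deviation was 0.329 on this scale, the nearest was MYC, a growth-promoting transcription factor, at a distance of 0.0345, followed by TXNIP, an inhibitor of thioredoxin, at 0.0578 and AREG, an EGFR ligand, at 0.0649. MYC was at 238 ± 12.6, 192 ± 4.24 and 333 ± 8.91 CPM in controls, gRNA1 and gRNA2 (SD, n = 3), the same order of groups as CCN1. AREG was at 16.4 ± 0.634, 13.4 ± 1.03 and 22.0 ± 0.475 CPM.

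CCN2 had no neighbour as close. Its nearest genes were GDF15, a stress-induced cytokine, at 0.146, the keratin pseudogene KRT16P2 at 0.146 and EREG, another EGFR ligand, at 0.148, where the deviation of CCN2 itself was 0.447. GDF15 was at 15.2 ± 0.231, 17.8 ± 1.43 and 26.8 ± 3.46 CPM, and EREG at 20.3 ± 0.649, 28.0 ± 1.35 and 37.1 ± 2.93 CPM, so both followed the order control, gRNA1, gRNA2 of CCN2. Reads of a pseudogene such as KRT16P2 may be split with its parent gene and are uncertain. For ANKRD1, with a deviation of 0.148, the nearest were CREB3L1 at 0.0515, GPATCH3 at 0.0601 and CDC37L1 at 0.0608. These distances rank likeness over the same 9 libraries and say nothing about shared control. Genes picked this way share the order of groups largely by the choice, so nothing is read from it, also for the neighbours of CCN1.

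**Figure D4:**
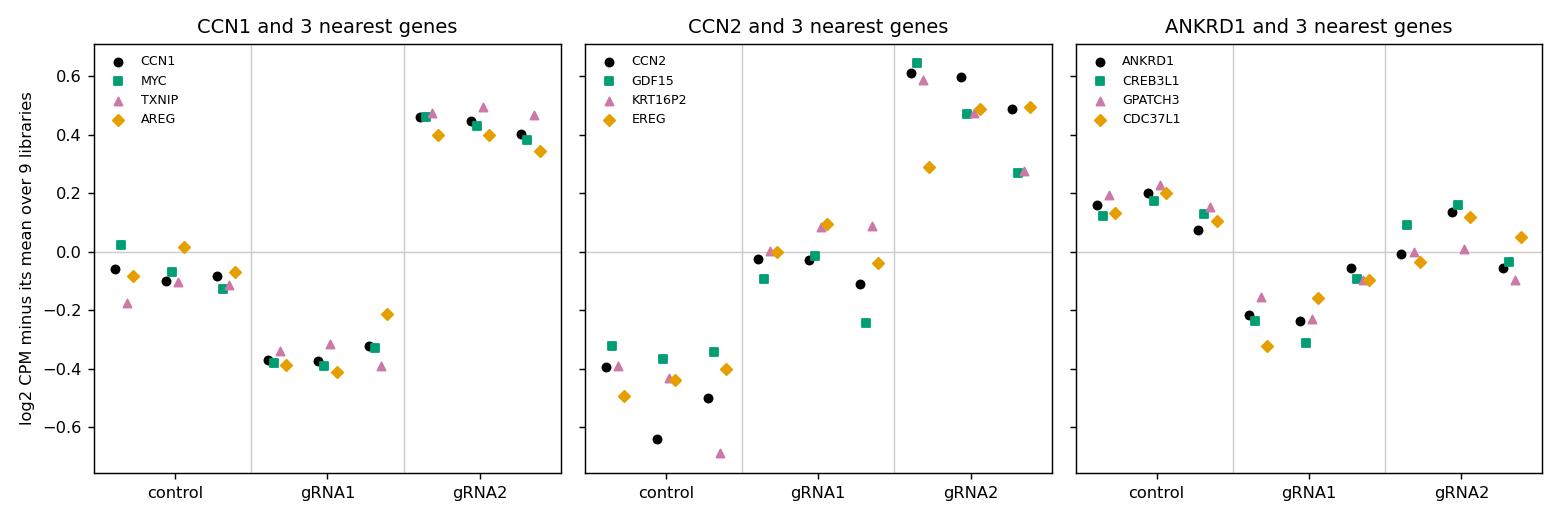
The vertical axis gives log2 CPM minus the gene's mean over 9 libraries, and each column is 1 library, grouped as control, gRNA1 and gRNA2. The points of MYC, TXNIP and AREG lie close to those of CCN1 in all 9 libraries, while the neighbours of CCN2 lie farther from it, at 0.146 to 0.148.

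Differences of the pathway mediators themselves were small. YAP1 had means of 193 ± 7.33, 181 ± 6.34 and 186 ± 7.28 CPM in control, gRNA1 and gRNA2 libraries, with log2 differences of -0.09 (edgeR adjusted p = 0.23) and -0.05 (0.51) from the control. WWTR1, which encodes TAZ, was at 159 ± 0.583, 157 ± 2.08 and 146 ± 2.20 CPM, and it fell with gRNA2 (log2 -0.13, adjusted p = 0.031) but did not pass with gRNA1 (-0.02, 0.75). That call ended without any 1 of the 3 controls, without gRNA1 replicate 2 and without gRNA2 replicates 1 or 2, and also with no filter on low counts, with only the 2 groups in the fit and with the length offset. TEAD1 was at 269 ± 6.85, 248 ± 2.66 and 267 ± 11.9 CPM, with adjusted p of 0.081 and 0.86. Differences of TEAD2, TEAD3 and TEAD4 from the control were between -0.13 and 0.15 on the log2 scale and did not pass. Of the 8 genes tested in the list of YAP, TAZ, TEAD and VGLL genes, edgeR called 0 with gRNA1 (4 at an unadjusted p below 0.05, and 0 by DESeq2), and with gRNA2 only WWTR1 (also by DESeq2), where 7.08% and 8.44% of all genes tested were called. Between the guides edgeR called 0 of the 8, with 3 at an unadjusted p below 0.05 and 0 by DESeq2.

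Of 94 tested genes in 6 lists of the wider pathway, excluding the 10 target genes, 7 rose and 11 fell with gRNA1. Of all genes tested, 3.49% rose and 3.58% fell with this guide. With gRNA2, 9 of the 94 rose and 5 fell, where 3.69% and 4.75% of all genes tested did. Between the guides 8 were higher and 5 lower with gRNA2, where 6.22% of all genes tested were called (3.12% higher, 3.1% lower). These counts moved by over 1.5 times when 1 library was left out: for gRNA1, 6 to 10 genes were called without any 1 control or gRNA1 replicates 1 or 2, and for gRNA2, 6 to 9 without any 1 control, gRNA1 replicate 2 or gRNA2 replicates 2 or 3. Among 28 Hippo kinases and upstream regulators, 3 rose and 0 fell with gRNA1 by edgeR and by DESeq2 (2 were lower at an unadjusted p below 0.05), and 2 rose and 1 fell with gRNA2. AMOTL1, the sister gene of AMOTL2, had means of 5.16 ± 0.685, 9.85 ± 0.435 and 7.48 ± 0.332 CPM in the same order, so that it rose with both guides (log2 0.93, adjusted p = 0.00012, and 0.54, 0.0066) where AMOTL2 was lower with gRNA1. WTIP, which belongs to the AJUBA family, also rose with both (0.37, adjusted p = 0.0024, and 0.27, 0.015), the latter not without control replicate 1 or gRNA2 replicate 2. Calls of both genes ended with an offset for transcript length.

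Among 13 other genes of YAP and TAZ signatures, edgeR called 2 higher and 2 lower with gRNA1, and DESeq2 2 higher and 1 lower. With gRNA2 both methods called 2 higher and 0 lower (1 was lower at an unadjusted edgeR p below 0.05). Of all genes tested, edgeR called 3.49% higher and 3.58% lower with gRNA1, and 3.69% and 4.75% with gRNA2. IGFBP3, which binds insulin-like growth factors, was at 6.17 ± 0.334, 10.8 ± 0.827 and 5.59 ± 1.29 CPM and rose with gRNA1 (log2 0.81, adjusted p = 0.0016). TGFB2, a transforming growth factor, rose with gRNA2 (0.37, adjusted p = 0.00066), as did GADD45A, a growth-arrest gene (0.34, 0.0015), and both calls ended with the length offset. MYOF fell with gRNA1 (-0.15, adjusted p = 0.0054), though not without control replicate 2 or gRNA1 replicate 2. Directly between the guides, edgeR called 2 genes of this list higher and 1 lower with gRNA2, where 3.12% and 3.1% of all genes tested were. IGFBP3 was 0.507-fold with gRNA2 against gRNA1 (edgeR adjusted p = 0.00043).

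**Figure D5:**
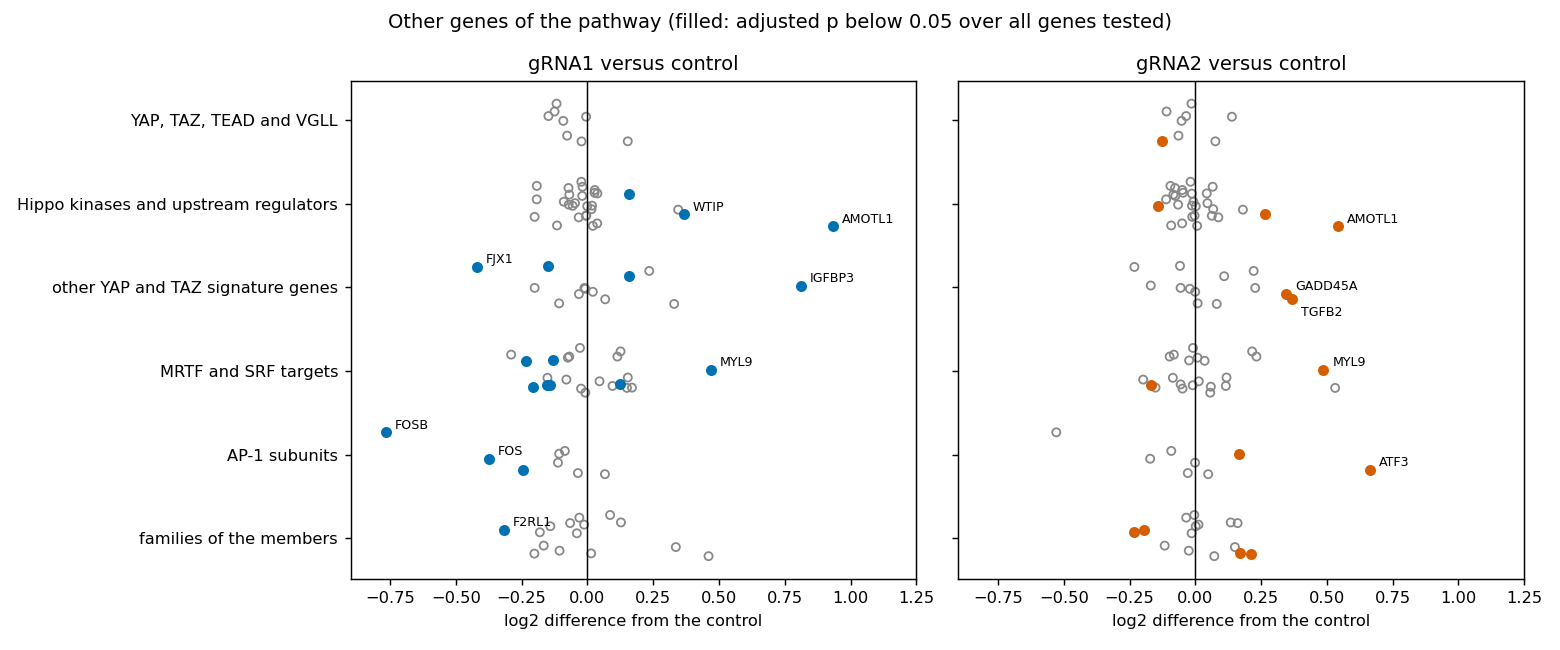
Each point is 1 tested gene of the 6 pathway lists, with its log2 difference from the control on the horizontal axis and a small vertical offset that has no meaning; filled points passed an adjusted p of 0.05 over all genes. Open points reach from -0.53 for FOSB to 0.53 for CNN1, both with gRNA2. AMOTL1 at 0.93 and IGFBP3 at 0.81 with gRNA1 lie farthest to the right.

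Serum response factor and its MRTF coactivators, and AP-1, often act with YAP at the same targets. Of 22 MRTF and SRF targets, 2 rose and 5 fell with gRNA1 and 1 rose and 1 fell with gRNA2, where 3.49% and 3.58%, and 3.69% and 4.75%, of all genes tested did. Between the guides 3 were higher and 2 lower with gRNA2, where 3.12% and 3.1% of all genes tested were. TPM1, a tropomyosin, fell with gRNA1 (log2 -0.21, edgeR adjusted p = 0.0027, lost with the length offset) and was higher with gRNA2 than with gRNA1 (0.27, 0.00042). MYL9, a myosin light chain, rose with both guides (log2 0.47, adjusted p = 0.0074, and 0.49, 0.0054), and ACTB, beta-actin, fell with both (-0.14, 0.017, and -0.17, 0.0055), the gRNA1 call not without control replicate 1 or gRNA1 replicates 1 or 2. Of 8 AP-1 subunits, 0 rose and 3 fell with gRNA1 by edgeR, and 2 rose and 0 fell with gRNA2. DESeq2 called 1 lower with gRNA1 and 1 higher with gRNA2, and at an unadjusted p below 0.05 edgeR had 0 higher with gRNA1 and 1 lower with gRNA2. ATF3 had means of 19.5 ± 0.911, 16.5 ± 0.488 and 30.9 ± 1.26 CPM in control, gRNA1 and gRNA2 libraries, the same order of groups as CCN1, and rose with gRNA2 (0.66, adjusted p = 1.7e-05). Its lower value with gRNA1 (-0.25, adjusted p = 0.032) did not pass without control replicates 2 or 3, any 1 gRNA1 library or gRNA2 replicate 2. The other calls in this list, FOS (-0.37, 0.027) and FOSB (-0.77, 0.025) with gRNA1 and JUN (0.17, 0.042) with gRNA2, were each lost when single libraries were left out. For FOS these were any 1 control and gRNA1 replicates 1 or 2, for FOSB controls 1 or 2 and any 1 gRNA1 library, and for JUN controls 2 or 3, gRNA1 replicates 1 or 2 and any 1 gRNA2 library. Between the guides, ATF3 was 1.88-fold (adjusted p = 9.2e-07) and JUN 1.21-fold (0.0031) higher with gRNA2.

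In the families of the 10 genes themselves, 15 relatives were tested, of which 0 rose and 1 fell with gRNA1 by edgeR and by DESeq2 (1 was higher at an unadjusted p below 0.05), and 2 rose and 2 fell with gRNA2. The single call with gRNA1 is near the 7.08% of all genes tested that were called. With gRNA2, 3.69% of all genes tested were called higher and 4.75% lower. F2RL1, a protease-activated receptor that is cleaved by the complex of tissue factor with factor VIIa, fell with gRNA1 (log2 -0.32, adjusted p = 0.0027). With gRNA2, F2RL1 was also lower (-0.20, adjusted p = 0.037, not without any 1 control or any 1 gRNA2 library, or gRNA1 replicate 2). MERTK, a receptor of the same family as AXL, was higher with gRNA2 than with gRNA1 (0.41, adjusted p = 0.00088), the reverse of AXL at -0.30. The MERTK call ended with the offset for transcript length.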

How the data were processed

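Total RNA was depleted of ribosomal RNA and sequenced as 9 libraries in 3 groups, per the labels' protocols. The authors ran Salmon 1.4.0 with the build hg38, per the submitters' processing notes, and deposited 1 table per library. Its columns hold estimated counts of reads per transcript and the TPM of the authors' Salmon run, with transcript lengths and effective lengths, per the file headers. The annotation and the strand setting are not given in the sources used here. The members and gene lists were chosen with earlier results of these data known.

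Of 211939 transcripts, 95.7% matched GENCODE 29 by identifier, and 1.26% to 1.33% of reads on unmatched ones were left out. Estimated counts were summed to 56823 genes and rounded, and TPM was summed in the same way for levels between genes. Current symbols were found for 99.1% of genes. Per-sample columns left unused numbered 0, and MYH11 was not analysed here. After filterByExpr and TMM scaling, groups were compared by the quasi-likelihood F test of edgeR 4.0.16 (R 4.3.3) in a single fit of 9 libraries, two-sided, with a threshold of 0.05 on the Benjamini-Hochberg adjusted p over all 19658 genes tested. CPM use TMM-scaled library sizes. The biological coefficient of variation was 0.051, and the test was checked on simulated data.

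Genes named are the 10 members; YAP1, WWTR1 and TEAD1 to TEAD4; up to 4 genes past the threshold, lowest adjusted p first, of each of the other 5 pathway lists (Hippo kinases and upstream regulators, YAP and TAZ signatures, MRTF and SRF targets, AP-1 subunits, families of the members), not all of which are printed; and the 3 nearest genes of CCN1, CCN2 and ANKRD1. Nearest genes were sought where the average log2 CPM reached 1. The markers named were chosen outside this rule. Alternatives were a replicate block, RLE scaling, DESeq2 1.42.0, omission of the low-count filter, fits of only the 2 groups compared, an offset for transcript length and leaving out each library.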

Additional observations from a re-analysis of the deposited data

How the results depend on the processing

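Signs of the 10 target genes held under all 15 alternatives in each comparison, except CRIM1 with gRNA2 against the control (0.03 with the transcript length offset). Of these alternatives, 9 leave out 1 library, which can scarcely turn a sign where the groups do not overlap. The genes were also chosen on these contrasts, so nothing is read from the signs that held. The offset moved most counts: 536, 433 and 446 genes were called for gRNA1, gRNA2 and the comparison of guides, against 1391, 1659 and 1222, and 6 and 5 pathway genes for gRNA1 and gRNA2, against 18 and 14. Leaving out 1 library gave 654 to 1701, 671 to 1817 and 575 to 1215 genes, and 6 to 24, 6 to 15 and 9 to 13 pathway genes (13 with all libraries between guides). Near 0, the log2 difference of TEAD3 between guides turned to -0.026 with the offset and ranged from -0.035 to 0.087 without 1 library, that of TEAD1 with gRNA2 from -0.046 to 0.022, of TEAD2 with gRNA2 from -0.0050 to 0.122 and of TEAD4 with gRNA1 from -0.042 to 0.038. TEAD1 with gRNA1 passed only with the offset (-0.24). Of 41 calls of named genes, 11 were kept in every alternative, 9 ended only with the offset and 21 without at least 1 library. The cause was not tested. Over 14348 genes, deviations of same-numbered libraries correlated at -0.16 to 0.21 and those of differently numbered ones at -0.25 to 0.24. For gRNA2 against the control the same-numbered values were 0.21, 0.04 and 0.13, and the others ran from -0.19 to 0.09. These values do not settle whether the numbers pair the libraries. With the replicate block 1264, 1582 and 1144 genes and 18, 14 and 13 pathway genes were called. Depth limits AXL most, at 73 to 150 reads.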
